A study of Mus musculus with 4 samples.

Results

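The genes of mouse chromosomes 1, 3 and 9 were followed by position in 4 cell lines of oral squamous cell carcinoma. They were chosen by location and level: protein-coding genes on these chromosomes with at least 1 FPKM, a level scaled to transcript length and to the size of the library, in at least 1 line. This selected 1854 of the 11373 protein-coding genes that reach this level in the genome, 657 of them on chromosome 1, 560 on chromosome 3 and 637 on chromosome 9. Of the 3156 protein-coding genes listed on the 3 chromosomes, 255 were listed at 0 in every line and 1047 had some signal below the filter. Sema4a, at 1.02 FPKM in its highest line, was among the lowest that entered, and Eya1, at 0.999 FPKM, among the highest that did not. The 3 chromosomes themselves were singled out because of their values in the comparison of AOC3-LN with AOC3, so that comparison is given as a description.

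All 4 lines came from C57BL/6 mice whose buccal mucosa had been treated with the carcinogen 7,12-dimethylbenzanthracene (DMBA), and no transgene or deleted allele is named for them. AOC3 was derived from the oral tumor of one mouse and AOC3-LN from a lymph node metastasis of the same mouse. AOC11 and AOC11-LN are the corresponding oral and lymph node lines of another mouse. Before they became lines, the cells had been grown as subcutaneous tumors in the flank of C57BL/6 hosts and the fibroblasts had been removed, so each line also carries the history of that passage. Each line was sequenced as 1 library of polyadenylated RNA. No difference below therefore has a replicate, and no test between lines was possible.

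Cells normally carry a pair of each autosome, and the RNA output of most genes follows the number of gene copies in the cell. The gain or loss of a chromosome therefore tends to move many unrelated neighbouring genes a little in one direction, whereas a change in signaling moves selected genes, often by much more, wherever they lie. Carcinomas, those of squamous epithelium included, commonly carry such gains and losses of chromosomes or chromosome arms. DNA copy number was not analysed here, and in bulk RNA a change in all cells of a line cannot be told apart from a larger change in some of them.

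The members have their position in common and not, as a group, a type of control region. As an illustration, the 100 bases before the annotated start are printed for 1 gene of each chromosome, with every CG pair in capitals, since CG-rich and CG-poor starts are different classes of promoter. Each was selected as the gene whose AOC3-LN against AOC3 difference lay nearest to the median of its chromosome among the 20 most abundant suitable genes, so their near-equal differences were set by the choice. Sequences are from RefSeq on GRCm38.p6, written 5′ to 3′ along the strand of the gene.
Dhx9 (chr1:153487661-153487760, minus strand): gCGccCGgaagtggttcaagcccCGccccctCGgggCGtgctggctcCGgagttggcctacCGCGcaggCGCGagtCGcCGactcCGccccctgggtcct
Sars (chr3:108445260-108445359, minus strand): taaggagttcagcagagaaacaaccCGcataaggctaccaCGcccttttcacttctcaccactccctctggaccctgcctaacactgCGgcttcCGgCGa
Qars (chr9:108507905-108508004, plus strand): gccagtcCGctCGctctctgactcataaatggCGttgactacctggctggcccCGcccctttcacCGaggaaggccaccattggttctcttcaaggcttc

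Dhx9 encodes an RNA helicase, and Sars and Qars encode the enzymes that load serine and glutamine onto their transfer RNAs. The Dhx9 window holds 13 CG pairs, a number reached by 9.45% of the 32851 windows of this length in the RefSeq promoter table. The Sars and Qars windows each hold 5, a number reached by 38.9%. Dhx9 was at 210.5 FPKM for AOC3 and 188 for AOC3-LN, Sars at 206 and 184, and Qars at 112 and 101. The AOC3-LN value was the lower of the pair for all 3 genes.

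Depth and cell type bear on every value. Estimated from the steps between low FPKM values, the libraries held between 2.84e+07 fragments (AOC3-LN) and 3.36e+07 (AOC11), and this estimate is only approximate because between 71.3% and 74.7% of the values used fell near a whole number of fragments. The 6 epithelial markers summed to between 2736 and 3492 FPKM. None of the 5 fibroblast markers and none of the 3 endothelial markers reached 1 FPKM in any line, with summed levels of at most 0.884 and 0.384 FPKM. Of the 5 leukocyte markers, Cd68, a lysosomal protein, reached 1 FPKM, at 12.97 in AOC3 and 8.79 in AOC3-LN against 6.15 in AOC11 and 4.45 in AOC11-LN, while the defining marker Ptprc stayed at or below 0.0640 FPKM.

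Genes of chromosomes 1, 3 and 9 were lower in AOC3-LN than in AOC3 as whole chromosomes. Differences are given on the log2(FPKM + 1) scale after quantile normalization. They are called relative once the median over the other autosomes, 0.04 in this comparison, has been subtracted. The median relative difference was -0.22 on chromosome 1, -0.23 on chromosome 3 and -0.22 on chromosome 9, or 14.1%, 14.6% and 14.3% lower in FPKM + 1. On chromosome 1, 76.7% of the 657 genes lay below the median of the other autosomes, on chromosome 3 83.4% of 560, and on chromosome 9 80.5% of 637.

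The shift was small beside the spread between genes. The interquartile range ran from -0.40 to -0.02 on chromosome 1, from -0.41 to -0.08 on chromosome 3 and from -0.41 to -0.04 on chromosome 9. The interquartile range was 0.36 over the 3 chromosomes together and 0.38 on the other autosomes, so the whole distribution stood lower without being much wider. The plot of cumulative shares shows the displaced curves.

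**Figure D1:**
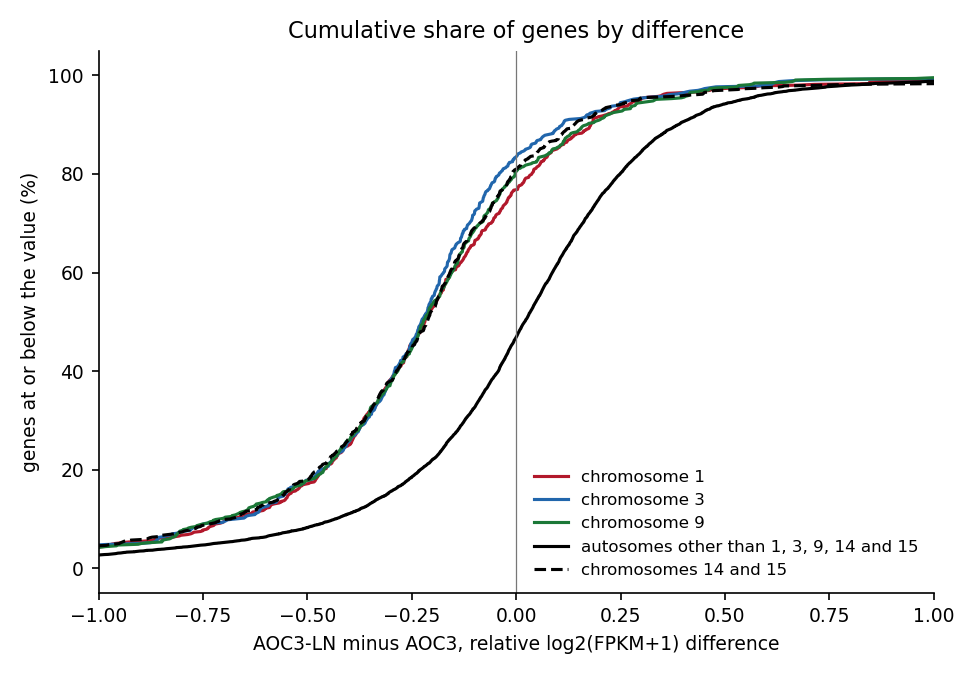
Cumulative percentage of genes (y axis) by relative log2(FPKM + 1) difference, AOC3-LN minus AOC3 (x axis), for chromosomes 1, 3 and 9, chromosomes 14 and 15 together, and the remaining autosomes, each line 1 set of genes. The curves of chromosomes 1, 3 and 9 lie to the left over nearly their whole length and reach 76.7%, 83.4% and 80.5% at 0, and the dashed curve of chromosomes 14 and 15 runs with them.

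Chromosomes 1, 3 and 9 were not alone in this. Chromosome 14 had a median relative difference of -0.22 and chromosome 15 of -0.20. The other 14 autosomes lay between -0.04 (chromosome 2) and 0.07 (chromosome 4), with a standard deviation between chromosomes of 0.03, and chromosome X lay at -0.02. By whole-chromosome median, chromosomes 1, 3, 9, 14 and 15 thus formed a lower set, and no autosome lay between -0.20 and -0.04.

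The unprocessed values of the 3 chromosomes were lower too, though their medians are not set against the other autosomes. The median member of chromosome 1 was at 11.7 FPKM for AOC3 and 9.61 for AOC3-LN. On chromosome 3 these medians were 13.3 and 10.2 FPKM, and on chromosome 9 they were 13.4 and 11.1 FPKM. As a share of all protein-coding FPKM above the filter, chromosome 1 took 4.39% in AOC3 and 3.90% in AOC3-LN, chromosome 3 took 5.16% and 4.52%, and chromosome 9 took 7.17% and 6.41%. The share was lower in AOC3-LN for each of the 3 chromosomes.

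**Figure D2:**
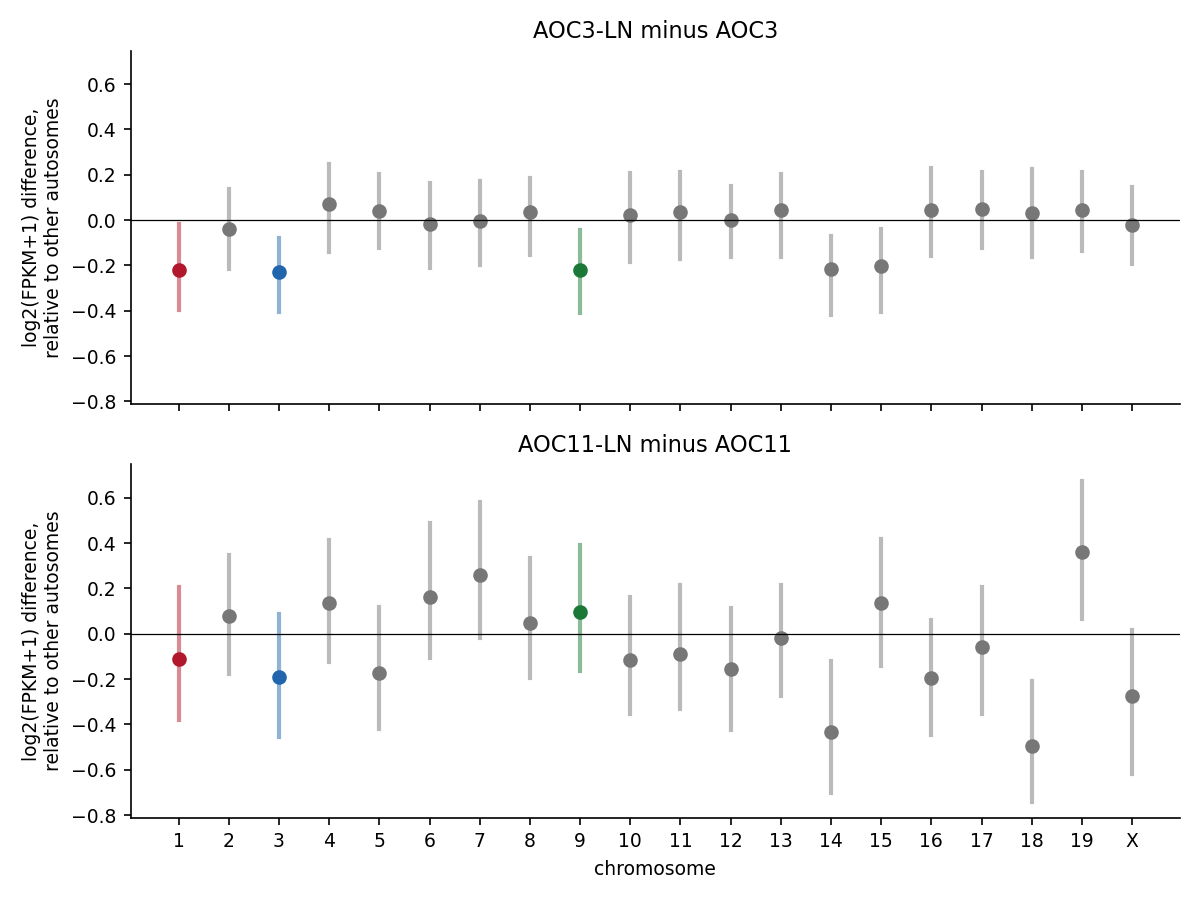
Relative log2(FPKM + 1) difference (y axis) by chromosome (x axis) for the lymph node line against the oral line of each mouse, with points at the median over genes and bars over the interquartile range. In the upper panel chromosomes 1, 3 and 9 (colored) sit near -0.22 with 14 and 15 and the rest stay between -0.04 and 0.07, and in the lower panel the chromosomes are spread from -0.50 (chromosome 18) to 0.36 (chromosome 19).

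Large differences were few. Counted on the difference itself, before the median of the other autosomes was subtracted, one of more than 0.5 downward was found for 291 of the 1854 members, 15.7%, where 9.5% of all 11373 genes were that much lower. It was found for 99 genes of chromosome 1, 91 of chromosome 3 and 101 of chromosome 9. Upward, 56 members, 3.02%, passed 0.5, where 5.97% of all genes did. Past a difference of 1, 73 members were lower and 16 higher, 3.94% and 0.863%, beside 2.84% and 1.32% of all genes. Of these 89 genes, 28 were below 5 FPKM in both AOC3 lines, so their differences rest on low values. The shift of the chromosomes was thus carried by moderate differences of most genes and not by the genes past the fold.

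Along each chromosome the lower level reached over all bins with enough genes. Left out were 3 bins with fewer than 10 genes, among them that from 140 to 150 Mb of chromosome 1, with 6 genes at -0.01. The chromosomes were divided into bins of 10 Mb, and the 46 bins with at least 10 genes all had a median relative difference below 0, 19 of them on chromosome 1, 14 on chromosome 3 and 13 on chromosome 9. Below -0.1 lay 44 of the 46, where 29% of the 248 bins of the genome did (a threshold chosen after the values were seen), and 5.88% of the 170 bins of autosomes other than 1, 3, 9, 14 and 15. Below -0.25 lay 13 of the 46, where 7.26% of all bins did.

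On chromosome 1 the lowest bin was that from 120 to 130 Mb, at -0.30, and the highest that from 100 to 110 Mb, at -0.08, with 10 genes. On chromosome 3 the bins ran from -0.34 (20 to 30 Mb, 10 genes) to -0.08 (110 to 120 Mb, 18 genes). On chromosome 9 they ran from -0.35 (0 to 10 Mb, 15 genes) to -0.17 (100 to 110 Mb, 106 genes). Of these 6 bins, 5 held 20 genes or fewer. The standard deviation between bins was 0.05 on chromosome 1, 0.07 on chromosome 3 and 0.04 on chromosome 9. The bins of the 170 on other autosomes without 14 and 15 had one of 0.07 around a median of 0.02.

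A search for boundaries, which splits a chromosome where the medians of both sides differ by at least 0.2 and each side holds at least 40 genes, placed none on chromosomes 1, 3 and 9 in this comparison. On the other 17 chromosomes it placed 1, on chromosome 18. There the first 46 genes, up to 24 Mb, had a median of -0.21, like that of the lower chromosomes, and the other 242 of 0.05. The first part of each chromosome, up to its midpoint, had medians of -0.21, -0.24 and -0.24 on chromosomes 1, 3 and 9, and the last part of -0.22, -0.22 and -0.21. By this measure no end of the lower level and no step was found within the 3 chromosomes. It cannot find a stretch of fewer than 40 genes or a step under 0.2, a limit close to the size of the whole shift.

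**Figure D3:**
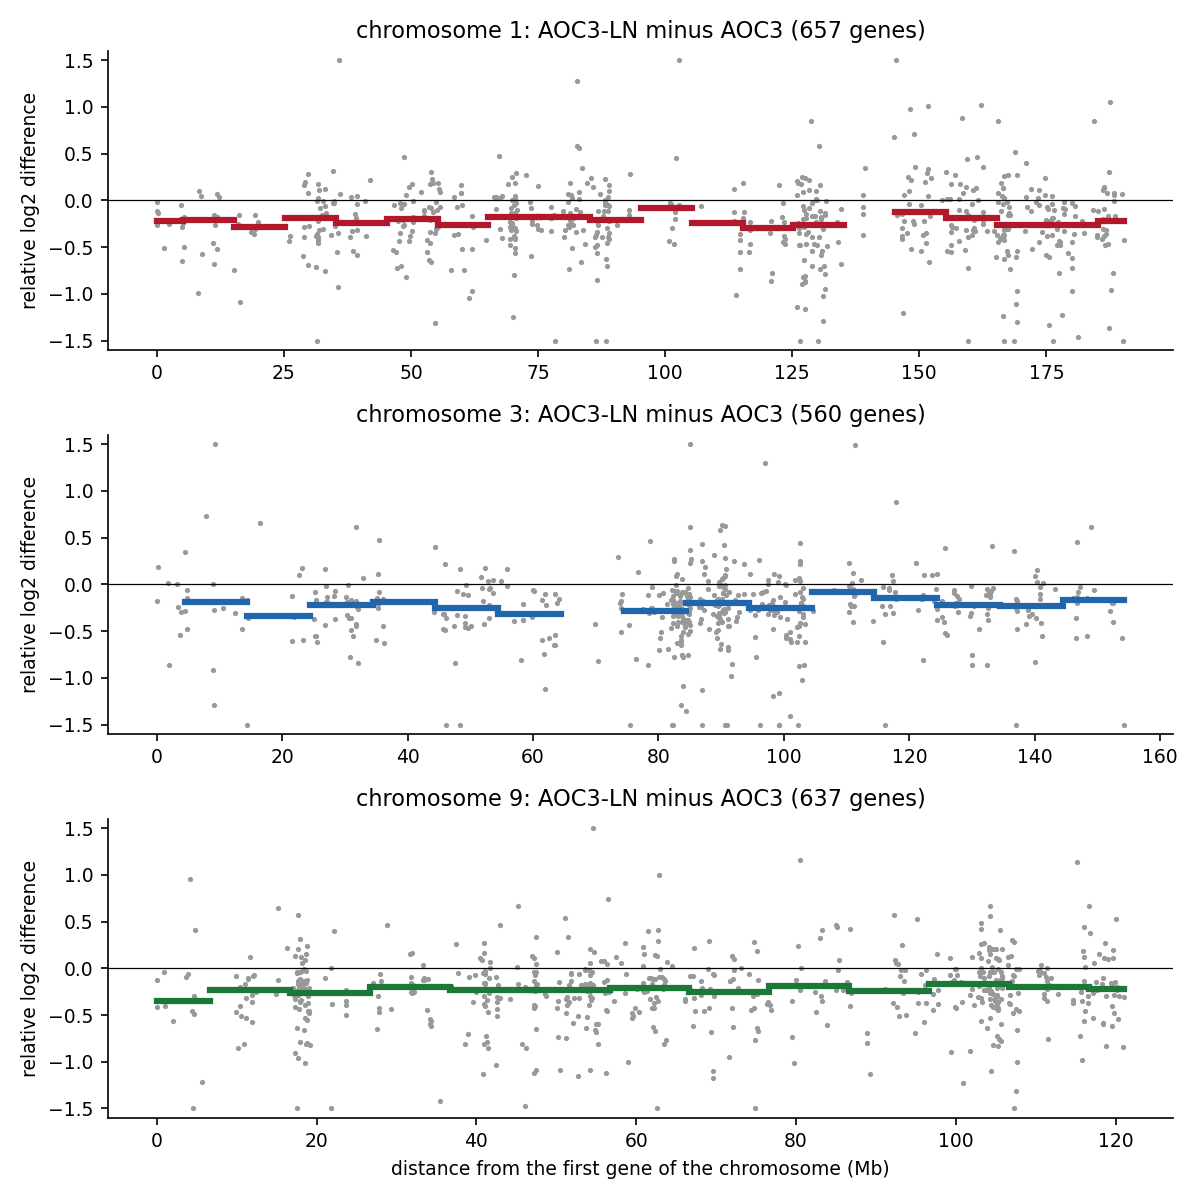
Relative log2(FPKM + 1) difference of each gene, AOC3-LN minus AOC3 (y axis, values past 1.5 in either direction drawn at that limit), against distance from the first gene of the chromosome in Mb (x axis), with points for genes and colored bars for the medians of 10 Mb bins with at least 10 genes. All 46 bars lie below 0, between -0.35 and -0.08, and the search placed no boundary on any of the 3 chromosomes.

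Strand, promoter GC content and transcript length made little difference to the size of the shift. Genes on the plus strand had a median of -0.22 and those on the minus strand of -0.23. Genes whose promoter GC content was under the median of 61.7% had -0.22, and the rest -0.22, among the 1188 members with 1 promoter in the RefSeq table. Genes with shorter transcripts, under a longest transcript of 3334 bases, had -0.23 and those with longer ones -0.21. The 25 members with TATAAA on the gene's strand in the 50 bases before the start, 6 on chromosome 1, 13 on chromosome 3 and 6 on chromosome 9, had medians of -0.24, -0.56 and 0.10, with interquartile ranges from 0.51 to 1.02. On the other autosomes 1.30% of the genes with 1 promoter held it.

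Level mattered more, and the log2(FPKM + 1) scale understates the differences of low genes. In the lowest of 3 equal classes of mean expression, below 7.47 FPKM, the median was -0.17 over 667 genes and 69.3% lay below the other autosomes. In the middle class it was -0.23 and in the highest, above 24.8 FPKM, -0.24, with 84.1% and 86.4% below. Each class was set against the genes of the same class on the other autosomes. The split by the difference in the AOC11 lines was of similar size, with -0.24 and 82.6% below over the 1366 members within 0.5 there and -0.17 and 70.1% below over the 488 past 0.5.

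Noncoding transcripts of at least 800 bases, counted apart from the members, were also lower, at -0.08 over 85 on chromosome 1, -0.08 over 66 on chromosome 3 and -0.20 over 58 on chromosome 9. Their interquartile ranges, from 0.35 to 0.50, were wider than these shifts. Over noncoding transcripts of any length the medians were -0.03 on chromosome 1, -0.07 on chromosome 3 and -0.08 on chromosome 9.

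The most abundant members deviated from the chromosome median in places. On chromosome 1 Ptma, which encodes prothymosin alpha, was at 2827 FPKM for AOC3 and 2362 for AOC3-LN, yet its relative difference was 0.03, because quantile normalization replaces the highest values of each line by shared ones. On chromosome 3 the calcium-binding protein S100a6 was at 4529 and 5584 FPKM, a relative difference of 0.61. On chromosome 9 the elongation factor Eef1a1 was at 7601 and 7041 FPKM, with 0.19. For genes in this range the FPKM values say more than the normalized differences.

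At the other end, Gm10985 on chromosome 3 and Gm10181 on chromosome 9, named after their values were seen, were at 350 and 297 FPKM in AOC3 and listed at 0 in AOC3-LN. Their transcripts are only 81 and 69 bases long, lengths at which FPKM is poorly determined, and no fold is given for them.

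The largest falls on chromosome 1, taken among genes with at least 5 FPKM in AOC3 or AOC3-LN and a transcript of at least 400 bases, exceeded the chromosome median many times over. Cd34, a surface sialomucin of progenitor cells, was at 16.6 FPKM in AOC3 and 1.23 in AOC3-LN against 0.303 in AOC11 and 0.454 in AOC11-LN. The relative difference in the AOC3 lines was -2.92, and AOC3 stood above the other lines. Aim2, which senses DNA in the cytosol and assembles an inflammasome, was at 10.3, 0.616, 0.197 and 3.10 FPKM in the same order, with a relative difference of -2.75 in the AOC3 pair and 1.603 in the AOC11 pair. Where 2 relative differences follow, they are given in this order.

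Ppp1r12b, a regulatory subunit of myosin phosphatase, was at 48.4, 10.004, 57.7 and 25.5 FPKM, lower in the lymph node line of both mice (-2.16 and -1.13). Ikbke, a kinase that activates interferon regulatory factors, was at 21.9, 3.97, 13.2 and 13.6 FPKM, with -2.14 and 0.05. AOC3-LN was the lowest of the 4 lines for Ppp1r12b and Ikbke.

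Against the direction of the chromosome, Ptgs2, the inducible cyclooxygenase of prostaglandin synthesis, was at 4.91 FPKM in AOC3 and 53.2 in AOC3-LN against 52.0 in AOC11 and 4.95 in AOC11-LN. The relative difference was 3.19 in the AOC3 pair and -3.21 in the AOC11 pair, so the 2 mice moved in opposite directions. Serpinb2, an inhibitor of plasminogen activators, was at 19.7, 162.5, 8.47 and 4.65 FPKM, with 2.93 and -0.81. Ngef, a guanine nucleotide exchange factor, was at 5.89, 14.9, 0.515 and 1.70 FPKM, with 1.27 and 0.56. Soat1, which esterifies cholesterol, was at 9.41, 19.5, 14.9 and 14.4 FPKM, with 1.01 and -0.03.

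On chromosome 3 Wls, which carries Wnt proteins to the cell surface, was at 20.7 FPKM in AOC3 and 3.58 in AOC3-LN against 30.3 in AOC11 and 14.8 in AOC11-LN, lower in both lymph node lines (-2.18 and -0.96). It is also the last member of chromosome 3. Rhoc, a GTPase of the actin cytoskeleton, was at 148, 34.5, 330 and 462 FPKM, with -2.09 and 0.49. Mov10, an RNA helicase, was at 26.2, 6.07, 20.5 and 29.1 FPKM, with -1.93 and 0.52. Rhoc, on the plus strand, ends at position 104794459 of mm10 and Mov10, on the minus strand, ends its transcript at 104794836, so both genes face each other at a short distance and both were lowest in AOC3-LN.

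Ceruloplasmin, Cp, a copper-carrying ferroxidase, was at 7.20, 0.903, 8.63 and 21.9 FPKM, with -2.04 and 1.27. The largest rises on this chromosome were lower in level. Car2, a carbonic anhydrase, was at 1.38, 6.83, 7.58 and 10.97 FPKM, with 1.80 and 0.48. S100a7a and Palmd had relative differences of 1.74 and 1.49 in the AOC3 lines.

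On chromosome 9 Pclaf, which binds the replication clamp PCNA, was at 32.6 FPKM in AOC3 and 7.29 in AOC3-LN against 61.0 in AOC11 and 31.9 in AOC11-LN, lower in both lymph node lines (-2.00 and -0.89). Birc3, a ubiquitin ligase of the inhibitor of apoptosis family, was at 8.21, 1.36, 12.5 and 7.20 FPKM, with -1.89 and -0.72. Gsta4, a glutathione transferase, had -1.51 in the AOC3 lines and Nradd -1.498. Sema7a, a membrane-anchored semaphorin, moved the other way in the AOC3 lines. It was at 2.96, 22.7, 0.550 and 0.804 FPKM, with 2.63 and -0.03. Elovl4, an elongase of very long fatty acids, had 1.16, Dapk2, a death-associated kinase, 0.999, and the metalloproteinase Mmp10 0.96. AOC3-LN was the highest line for Sema7a and Elovl4, and not for Dapk2, where AOC11 stood at 7.52 FPKM against 6.86.

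Gene clusters and functional groups of the 3 chromosomes were followed as 15 lists. Counts past 0.5 stand beside the 9.5% lower and 5.97% higher of all genes given above. Counts below the median of the other autosomes stand beside 76.7%, 83.4% and 80.5% of all members on chromosomes 1, 3 and 9. On chromosome 1 the Ifi200 family of interferon-inducible DNA sensors had 8 of its 14 genes among the members. Of these, 6 lay more than 0.5 lower in AOC3-LN and 1 more than 0.5 higher, with a median of -0.79. Ifi211 was at 12.8 FPKM in AOC3 and 4.30 in AOC3-LN against 9.47 in AOC11 and 20.5 in AOC11-LN, and Ifi204 at 4.46, 1.39, 3.26 and 11.9 FPKM. In the AOC11 lines, 7 of the 8 lay more than 0.5 higher in AOC11-LN, beside 13.8% of all genes, and the median was 1.09. Among these 7, Ifi203 was a member only through AOC11-LN, at 1.31 FPKM against 0.304 in AOC11, so its rise was set by the filter. It is also among the 6 lower in AOC3-LN, at 0.442 FPKM in AOC3 and 0 in AOC3-LN. The genes of this family resemble each other closely, so how fragments were divided among them is uncertain.

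The other chromosome 1 lists held few members. The 3 members of the receptor cluster for interleukin 1 and interleukin 18 all lay lower, with a median of -0.55. The highest was Il18r1, an interleukin 18 receptor chain, at 1.33 FPKM in AOC3 and 0.187 in AOC3-LN against 22.4 in AOC11 and 8.997 in AOC11-LN. Il1r1, whose value is the median, and Il18rap had at most 0.686 and 0.418 FPKM in the AOC3 lines. Both were members only through the AOC11 lines, so their falls rest on values below 1 FPKM. Of 4 laminin and matrix genes, 3 lay below the other autosomes, with a median of -0.16. Among the 3 expressed genes of the Serpinb cluster the median was 0.45, with 1 below, and the complement regulator Cr1l had -0.42. The 2 prostaglandin genes, Ptgs2 and Pla2g4a, both lay more than 0.5 higher, as described for Ptgs2.

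On chromosome 3 the list of cornified envelope genes, which build the insoluble shell of differentiated keratinocytes, had 12 of 40 genes among the members, of which 10 lay below the other autosomes and 2 more than 0.5 lower. These were Sprr1b, at 20.5 FPKM in AOC3 and 5.44 in AOC3-LN against 2.06 in AOC11 and 2.07 in AOC11-LN, and Sprr1a, at 55.6, 25.4, 5.33 and 2.43 FPKM. The list median was -0.22, near that of the chromosome. Among the 10, Pglyrp3, Sprr2a1, Sprr2a3 and Lce1f had at most 0.747 FPKM in the AOC3 lines. They were members only through the AOC11 lines. In the AOC11 pair the list median was -0.98, and 8 of the 12 lay more than 0.5 lower, beside 15% of all genes. Among these 8, Lce1f was a member only through AOC11, so its fall was set by the filter. Of the neighbouring S100 genes, 5 of 11 lay below, with a median of 0.04. This median is the value of S100a11, at 2737 FPKM for AOC3 and 2274 for AOC3-LN. Its FPKM was thus lower in AOC3-LN although its normalized difference was not, so no contrast with the chromosome can be read from the list median. S100a10, the partner of annexin A2, was at 1089 FPKM for AOC3 and 826 for AOC3-LN, and S100a14 at 248.8 and 326. Many S100 transcripts are under 800 bases, where FPKM is less certain.

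Part of the long arm of human chromosome 3, a region often gained in squamous carcinomas, corresponds to mouse chromosome 3. Of 13 genes listed from it, 11 were members, 8 lay below the other autosomes and the median was -0.19. Among the 8, Gnb4 had at most 0.179 FPKM in the AOC3 lines and was a member only through the AOC11 lines. Ect2, an exchange factor needed for cytokinesis, was at 52.9, 35.6, 97.3 and 54.5 FPKM, and Prkci, an atypical protein kinase C, at 41.9, 28.8, 76.2 and 26.6. Both were highest in AOC11. Tbl1xr1, a corepressor subunit, was higher in AOC3-LN, at 7.85 FPKM for AOC3 and 12.3 for AOC3-LN. Sox2 did not reach the filter, with at most 0.211 FPKM. The 3 guanylate-binding proteins among the members all lay below, with Gbp2 at 3.79, 0.508, 4.14 and 14.2 FPKM. The other 2, Gbp3 and Gbp7, had at most 0.222 FPKM in the AOC3 lines and were members only through AOC11-LN, at 2.23 and 1.42 FPKM.

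On chromosome 9 the DNA damage kinases and mismatch repair genes were all 8 members, 6 of them below the other autosomes, none past 0.5 and with a median of -0.21. Topbp1, which activates the kinase ATR, was at 56.1, 43.2, 37.3 and 37.9 FPKM, and Setd2, a histone methyltransferase, at 21.6, 14.9, 15.1 and 17.4. Atm, the kinase of DNA breaks, was at 3.09 FPKM in AOC3 and 3.25 in AOC3-LN against 3.43 in AOC11 and 3.42 in AOC11-LN, a relative difference of 0.17 in the AOC3 lines, although it is in the middle of the chromosome. The study lists a stop-gain mutation of Atm in AOC3 and AOC3-LN. Of the 7 members around Yap1 and Birc3 at the start of the chromosome, 6 lay below, with a median of -0.35. Casp12 and Cep126, among the 7, had at most 0.577 and 0.482 FPKM in the AOC3 lines. Both were members only through the AOC11 lines. Yap1, the coactivator of the Hippo pathway, was at 39.8, 32.7, 45.4 and 36.5 FPKM.

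Of 5 members among the TGF-beta, Smad and Wnt genes, 4 lay below, with a median of -0.16. Smad3, a transcription factor of TGF-beta signaling, was at 61.4, 46.4, 26.9 and 23.6 FPKM. The chemokine receptor list had only Ccrl2 among the members, and the metalloproteinases only Mmp10. Ccrl2 was at 0.882 FPKM in AOC3 and 0.168 in AOC3-LN, a relative difference of -0.66. It was a member only through AOC11-LN, at 1.07 FPKM. Notch2 on chromosome 3 is a receptor that the study lists as mutated in AOC11 and AOC11-LN and not in the AOC3 lines. It was at 8.58 FPKM in AOC3 and 6.26 in AOC3-LN against 7.72 in AOC11 and 7.14 in AOC11-LN, with a relative difference of -0.35 in the AOC3 lines.

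In the other mouse, AOC11-LN against AOC11 shares no library with the comparison above. Chromosome 1 was lower by a median relative difference of -0.11, chromosome 3 by -0.19, and chromosome 9 was higher, at 0.09. These values lay well inside the range of the other autosomes of this pair, from -0.50 on chromosome 18 to 0.36 on chromosome 19, with a standard deviation between chromosomes of 0.23 (0.09 in the AOC3 pair). The interquartile range over members was 0.61. More than 0.5 lower were 282 members, 15.2%, and more than 0.5 higher 212, 11.4%, beside 15% and 13.8% of all genes. By chromosome, 129 genes of chromosome 3 were that much lower and 45 higher, and on chromosome 9 the counts were 48 and 105.

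The chromosome 9 median of this pair hid a step. The boundary fell between Tirap, a Toll-like receptor adaptor, and Srpr, a subunit of the signal recognition particle receptor, which adjoin at 35.2 Mb. The 121 genes before it had a median of -0.11 and the 516 after it 0.15. Tirap was at 11.6 FPKM in AOC11 and 6.96 in AOC11-LN, and Srpr at 37.9 and 43.0. The first bin, up to 10 Mb, was at -0.33, and the bins past 30 Mb lay between 0.02 and 0.24. The AOC3 pair had no step at this place, with -0.26 before and -0.22 after.

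Chromosome 1 of the AOC11 pair had bins from -0.28 (160 to 170 Mb) to 0.20 (70 to 80 Mb), and chromosome 3 from -0.60 (20 to 30 Mb, 10 genes) to 0.03 (80 to 90 Mb, 87 genes). No boundary was placed on either. The standard deviation between bins was 0.12 on chromosome 1 and 0.16 on chromosome 3, larger than in the AOC3 pair.

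Between the oral lines of the 2 mice, AOC3 against AOC11, chromosome 3 was lower by -0.33, the lowest of the 19 autosomes, and chromosome 9 higher by 0.23. Chromosome 1 lay at -0.08. This comparison shares AOC3 with the first and AOC11 with the second, so its values are not independent of theirs. More than 0.5 lower were 417 members, 22.5%, and more than 0.5 higher 294, 15.9%, beside 18.3% and 15.2% of all genes. On chromosome 3, 219 genes were that much lower and 46 higher. On chromosome 9, 63 were lower and 164 higher. All 14 bins of chromosome 3 lay below 0, from -0.67 to -0.21.

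On chromosome 9 the boundary of this comparison fell between Sept7, a cytoskeletal septin that ends at 25.3 Mb, and Eepd1, which begins at 25.5 Mb. The 104 genes before it had a median of -0.11 and the 533 after it 0.32. Sept7 was at 75.9 FPKM in AOC3 and 96.8 in AOC11, and Eepd1, a DNA repair nuclease, at 5.78 and 2.31. The 4 most abundant genes beyond the boundary differed among themselves. The elongation factor Eef1a1 was at 7601 FPKM in AOC3 and 5934 in AOC11, with a relative difference of -0.08, and Hspa8, a constitutive chaperone, at 2496 and 1884, with 0.31. The ribosomal proteins Rplp1 and Rpsa were lower in AOC3 in FPKM, Rplp1 at 1802 against 2703 and Rpsa at 1935 against 2030, with relative differences of -0.68 and 0.10. On the near side Ubl5, a ubiquitin-like splicing protein, was at 222 against 207 and Anln, a scaffold of the cytokinetic ring, at 125 against 146.

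Chromosome 3 had a smaller step at 36.0 Mb, between Dcun1d1 and Mccc1, which was lost under several other settings, such as a pseudocount of 0.1. The 56 genes before it had a median of -0.53 and the 504 after it of -0.31. The first part holds Ect2, Prkci and Actl6a of the list described above. The lipid carrier Fabp5 was at 135 FPKM in AOC3 and 125 in AOC11 there, and Tpd52 at 117 and 162.

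Between the lymph node lines, AOC3-LN against AOC11-LN, chromosome 1 lay at -0.23, chromosome 3 at -0.38 and chromosome 9 at -0.09. The comparison shares AOC3-LN and AOC11-LN with the within-mouse ones. More than 0.5 lower were 564 members, 30.4%, and higher 215, 11.6%, beside 22.7% and 19.6% of all genes. On chromosome 9 a boundary fell between Bbs9 and Dpy19l1, at 22.9 and 24.4 Mb, with 100 genes at -0.29 before it. The 495 genes from Dpy19l1 to Acaa1a were at -0.05, and the last 42, from Xylb at 119.4 Mb on, at 0.16. The boundaries of the 3 comparisons with an AOC11 line thus lay at 22.9 to 24.4, 25.3 to 25.5 and 35.2 Mb, and none was found where both lines came from the mouse of AOC3. The one at 35.2 Mb fell at 20.5 Mb without quantile normalization, and that of AOC3 minus AOC11 at 35.0 Mb with a mean of at least 5 FPKM. The one of the lymph node lines lay before Dpy19l1 in every setting that found it. Whether the 3 are separate sites cannot be told.

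**Figure D4:**
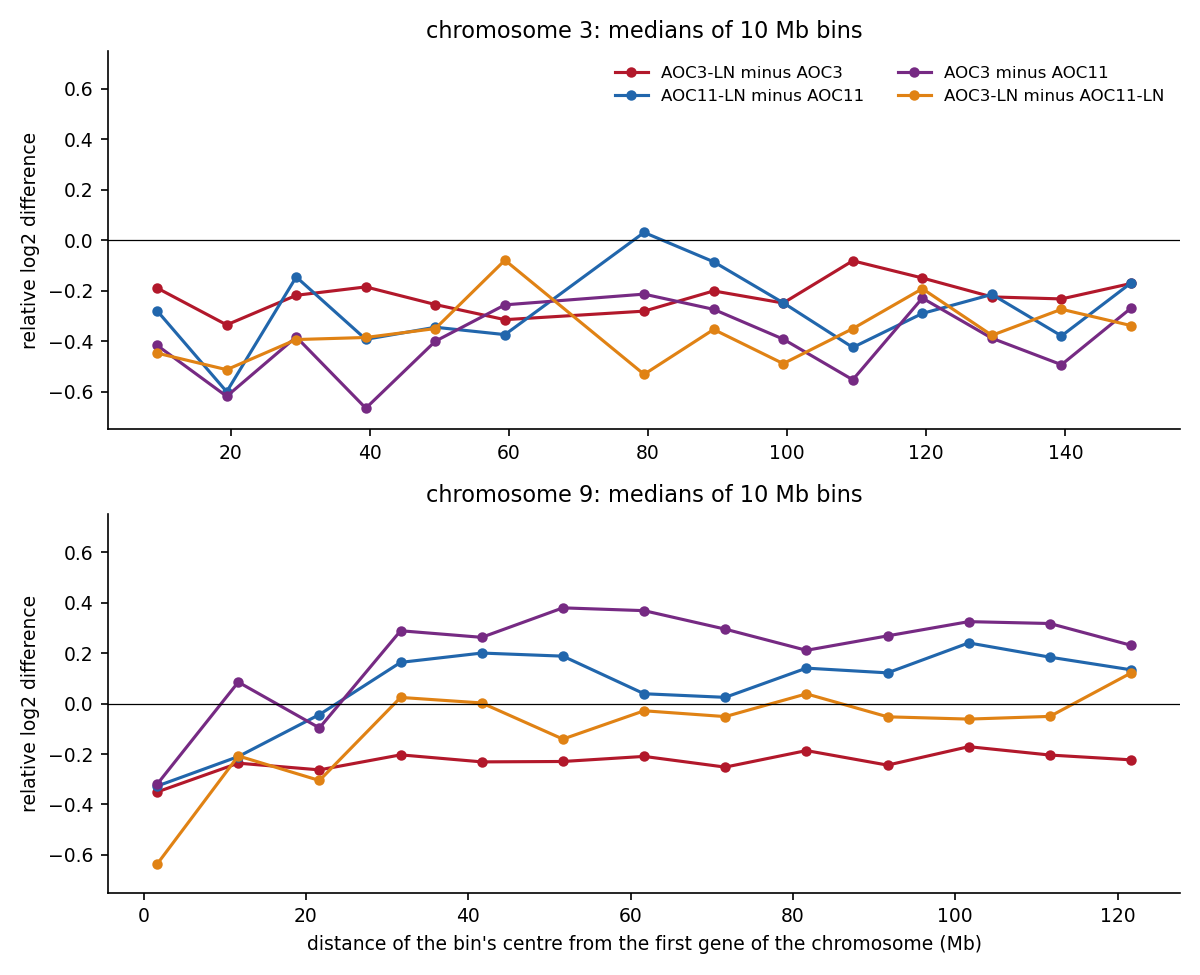
Median relative log2(FPKM + 1) difference (y axis) of 10 Mb bins with at least 10 genes on chromosomes 3 and 9, against distance of the bin's centre from the first gene in Mb (x axis), with 1 colored line per comparison. On chromosome 9 AOC3-LN minus AOC3 runs level near -0.22, while the other comparisons climb over the first bins, AOC3 minus AOC11 from -0.32 to values between 0.21 and 0.38 past 30 Mb.

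Set against the mean of the 4 lines, the levels show which line each contrast rested on. On chromosome 1 the median deviation was 0.04 in AOC3 and -0.18 in AOC3-LN against 0.13 in AOC11 and 0.02 in AOC11-LN, with AOC3-LN the line farthest from the others. On chromosome 3 it was -0.05, -0.30, 0.28 and 0.08, with AOC3-LN lowest and AOC11 highest. On chromosome 9 before the boundary at 25.3 Mb it was 0.03, -0.21, 0.14 and 0.06, with AOC3-LN lowest and AOC11 highest again.

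On chromosome 9 after the boundary the order changed, with 0.18 in AOC3 and -0.04 in AOC3-LN against -0.16 in AOC11 and 0.00 in AOC11-LN. There AOC3-LN and AOC11-LN lay close together, and AOC3 was the highest line. AOC3-LN was thus the lowest line on chromosomes 1 and 3 and on the start of chromosome 9, and lay near the middle of the lines on the rest of chromosome 9. The deviations are medians over genes of single libraries, and differences of a few hundredths cannot be read as an order.

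**Figure D5:**
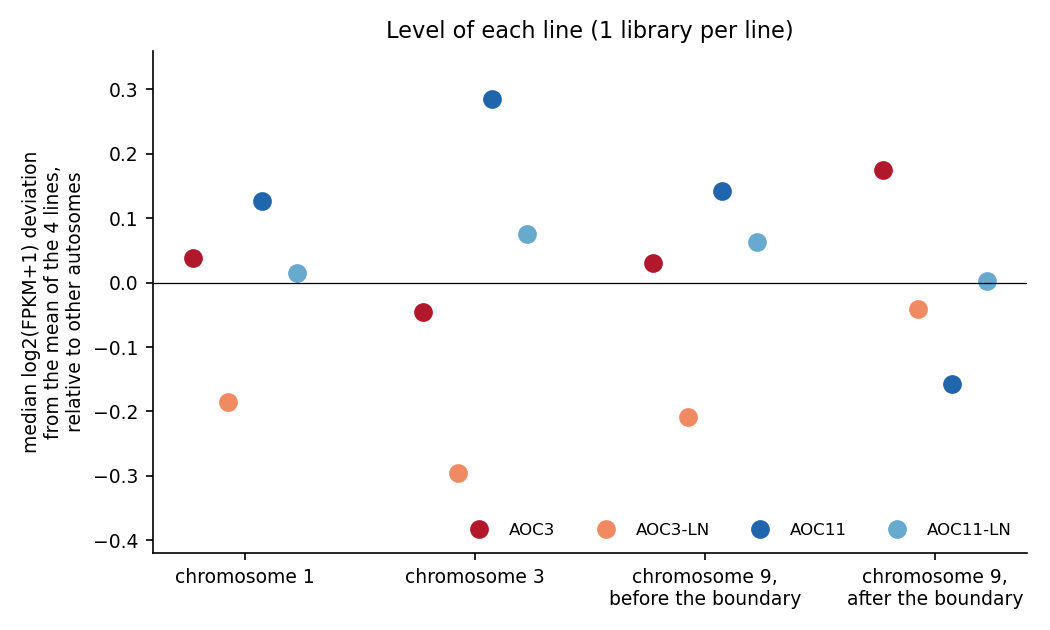
Median deviation of each line from the mean of the 4 lines, in log2(FPKM + 1) relative to the other autosomes (y axis), for chromosome 1, chromosome 3 and chromosome 9 before and after the boundary at 25.3 Mb (x axis), with 1 point per line. AOC3-LN is the lowest point at -0.18, -0.30 and -0.21 in the first 3 groups, and AOC11 is the lowest at -0.16 in the last.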

How the data were processed

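RNA from the 4 lines was sequenced as stranded paired-end mRNA libraries. According to the methods, the authors used Trim Galore for trimming, aligned the reads to mm10 with TopHat2 and estimated FPKM with Cufflinks on GENCODE M21, and deposited these FPKM values as 1 table. Versions, and whether strand was used in counting, are not given in the sources used here. The methods name a log2 transformation with quantile normalization, which the deposited values do not have. It was applied here to all 34721 entries with a pseudocount of 1 FPKM. Positions and types are from GENCODE M21. Genes with several entries kept the longest, and protein-coding genes with at least 1 FPKM in any line were used. Each difference was set against the median of autosomes other than 1, 3 and 9. Bins had 10 Mb and at least 10 genes. Boundaries came from binary segmentation of differences limited to between -1 and 1. It was tested first on simulated data, whose planted steps were larger than the chromosome shifts of AOC3-LN minus AOC3. Depth was estimated from FPKM steps, since the table has no counts. Named genes were the 4 largest differences per direction and chromosome (at least 5 FPKM in AOC3 or AOC3-LN, transcripts of at least 400 bases), the 3 largest of each list, the 4 most abundant of shifted segments, genes at boundaries and mutated genes of the study. Genes printed as examples of a list outside this rule were chosen after their values were seen. Some genes that the rule names are not reported here. The members and lists were chosen with earlier results of these data known. Python 3.11.15, numpy 2.4.6, pandas 2.3.3 and scipy 1.17.1 were used.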

Additional observations from a re-analysis of the deposited data

Results flagged for a closer look

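Chromosome 9 went opposite ways in the 2 mice. Its median relative difference was -0.22 for AOC3-LN minus AOC3 and 0.094 for AOC11-LN minus AOC11. It was singled out because the lymph node line lay below the oral line in one mouse and above it in the other. With 1 library per line the difference between the mice was not tested. The opposite sign held for the genes after the boundary at 35.2 Mb, with -0.22 and 0.15, and not for those before it, with -0.26 and -0.11.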

How the results depend on the processing

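Of 179 recomputed values over all results, 137 stayed within a set margin of the main value and 42 moved past it. None changed sign, which the counts among them could not do. The lower medians of chromosomes 1, 3 and 9 in AOC3-LN kept their sign under all 9 alternatives. On chromosome 1 they ran from -0.24 to -0.037, on chromosome 3 from -0.26 to -0.078 and on chromosome 9 from -0.25 to -0.060. The smallest came without the filter on low values, which adds many genes near 0 FPKM whose differences are near 0, at -0.037, -0.078 and -0.060. A pseudocount of 0.1 gave -0.26 on chromosome 3 and -0.25 on chromosome 9, and a reference without chromosomes 14 and 15, added after seeing the data, -0.24 on chromosome 9. Without the filter the AOC11 pair had -0.016, -0.070 and 0.0079 on chromosomes 1, 3 and 9, AOC3 minus AOC11 -0.019, -0.14 and 0.039, and AOC3-LN minus AOC11-LN -0.019, -0.082 and -0.00016.

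No alternative placed a boundary on chromosomes 1, 3 and 9 in AOC3-LN minus AOC3. The 1 boundary of the AOC11 pair became 2 with a pseudocount of 0.1 or medians 0.15 apart, the added one at 20.5 Mb, and 0 without the filter or with medians 0.3 apart. Without quantile normalization, with median scaling or with transcripts of at least 800 bases its boundary fell at 20.5 Mb. The 2 of AOC3 minus AOC11 became 1 with median scaling, a pseudocount of 0.1, a mean of at least 5 FPKM, segments of at least 60 genes or medians 0.3 apart, the chromosome 3 step being the one lost in all 5, and 0 without the filter. Without clusters and lists it was lost too, with a further boundary at 21.1 Mb of chromosome 9 in its place. The 2 of AOC3-LN minus AOC11-LN became 4 with segments of 25 genes, 1 without clusters and lists or with segments of 60 genes, and 0 without the filter, with a mean of at least 5 FPKM or with medians 0.3 apart.

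The 13 bins below -0.25 became 24 with a pseudocount of 0.1, 22 of 67 with bins of 5 Mb, 3 of 25 with bins of 20 Mb, 0 without the filter and 44 at a threshold of -0.1 added later, and all 25 bins of 20 Mb lay below 0. Members lower past 1 were 147 with a pseudocount of 0.1, 42 with a mean of at least 5 FPKM and 291 past 0.5, and higher ones 32 with the pseudocount of 0.1 and 56 past 0.5. No paired analysis was possible because each comparison made here sets 1 library against 1, and a fit of both lymph node lines against both oral lines, with the mouse as a block, was not run. A single library per line means that a difference between lines includes whatever differed between the cultures and library preparations, which was not tested. At the estimated depth of 2.84e+07 to 3.36e+07 fragments, a short transcript near 1 FPKM rests on fewer fragments than a long one.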

Other observations

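Subunits of complexes spread over many chromosomes, listed after the data were seen, let genes of 1 kind be compared between chromosomes. The 3 chromosomes were chosen for their low values in AOC3-LN minus AOC3, so such subsets would tend to lie low there. The counts for this pair are those below the median of the other autosomes, where 80.0% of all 1854 members lay. Complex I of the respiratory chain had 6 nuclear subunits on chromosomes 1 and 3, and all 6 lay lower in AOC3-LN, with a median relative difference of -0.37, beside -0.05 over 28 subunits on the other autosomes. Ndufs1 was at 32.1 FPKM for AOC3 and 24.6 for AOC3-LN, and Ndufb3 at 80.0 and 61.9. All 5 proteasome subunits on chromosomes 1, 3 and 9 lay lower, with a median of -0.17 beside 0.05 over 31 elsewhere. Psmb4 was at 164 and 151 FPKM and Psma4 at 172 and 159.

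Mitochondrial ribosomal proteins on the 3 chromosomes lay lower in 12 of 13 cases, with a median of -0.17 beside 0.12 over 62 on the other autosomes. Mrpl24 was at 58.4 FPKM for AOC3 and 45.8 for AOC3-LN, and Mrpl3 at 61.4 and 52.9. Cytosolic ribosomal proteins lay lower in 10 of 14 cases, with a median of -0.16 beside 0.14 over 61. Rplp1, at 1802 and 2161 FPKM, was the exception of largest size, and this family has many near-identical copies, so its values are uncertain. In the AOC11 lines the complex I subunits of these chromosomes had a median of -0.01 beside 0.29 elsewhere, and the proteasome subunits 0.07 beside 0.02.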
